A study of Mus musculus with 12 samples.

Results

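This account compares bone marrow after 18 days of anti-CD137 treatment with bone marrow after 4 days of the same treatment, across all genes. The 2 groups hold 6 of the 12 RNA sequencing libraries of the study, 3 at day 18 and 3 at day 4, and were taken from the study's own treatment labels. All 12 libraries are of total bone marrow cells from C57BL/6 mice that carry Vk12653, a transplantable mouse myeloma line of the Vk*MYC model, given by intravenous injection. Day 18 and day 4 mice received intraperitoneal doses of 10 µg of clone 3H3, an agonist antibody to CD137, 2 times a week, and were at days 28 and 14 after the myeloma injection. The remaining 6 libraries are 3 from day 11 of treatment (day 21 after injection) and 3 untreated (day 10 after injection, here day 0 of treatment), and they share the estimate of spread in the test. Longer antibody exposure and longer myeloma growth advance together from day 4 to day 18. No untreated library matches days 14 or 28 after injection in the data used here, so both influences cannot be told apart. The labels do not say whether a sample is 1 mouse, so p-values measure only the spread between these samples. Of 23134 genes in the table, 14883 had at least 10 normalised read counts in at least 3 of the 12 libraries and were tested; the other 8251 were left out.

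CD137, also called 4-1BB and encoded by Tnfrsf9, is a receptor of the tumour necrosis factor receptor family that appears on T cells and natural killer cells after activation. When it is bound, adaptor proteins of the TRAF family pass the signal to NF-kB, which favours survival and effector function, above all in CD8 T cells. Activated T cells release interferon gamma, which acts on most cells of the marrow through factors such as IRF1 and raises genes for antigen presentation, guanylate-binding proteins and chemokines. Bone marrow is made mostly of developing neutrophils and red cells, so T cell transcripts are a small share of its RNA.

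Between 18.5 M and 23.6 M assigned reads were estimated for the day 18 libraries and between 16 M and 17.8 M for the day 4 libraries, so the day 4 libraries were shallower without overlap. Between 1791 and 2255 genes were listed at 0 in the day 18 libraries, against 2189 to 2548 in those of day 4. This difference in depth moves with the comparison, and its part in the results was tested only as a covariate. The 4 neutrophil transcripts S100a8, S100a9, Ngp and Ltf held 6.52% to 8.06% of normalised counts at day 18 and 6.64% to 8.36% at day 4. Day 18 replicate 3 stood apart from the other day 18 libraries, at -7.1 on the second axis of variation where they lay at 11.8 and 19. On the first axis, with 27.9% of the variance, the day 18 libraries lay between -32.4 and -20.4 and the day 4 libraries between 9.8 and 14.3, with day 11 between -19.5 and -14.9 and untreated marrow between 31.6 and 33.4.

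At day 18, 413 genes (2.77% of those tested) were higher than at day 4 and 402 (2.70%) were lower. A gene counts as called here when the p-value of limma's moderated test on log2(normalised count + 1), adjusted by the Benjamini-Hochberg method over all tested genes, is below 0.05. The called genes make up 5.48% of those tested. Of these 815, 811 had no overlap between the 3 day 18 and the 3 day 4 samples, against 19.6% of all tested genes. Overlap was judged in the same samples that gave the p-values, so it describes the calls without further support. A log2 change of at least 1 was reached by 162 of the higher genes (1.09% of those tested) and 130 of the lower genes (0.873%). The median log2 change over all tested genes was 0.003. The number of calls depended on single libraries: it was 433 without day 18 replicate 2, 489 without day 4 replicate 2, 468 without day 4 replicate 3 and 1120 without day 18 replicate 3. It was 365 with the estimated reads of each library as a covariate, of which 342 were among the 815.

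**Figure D1:**
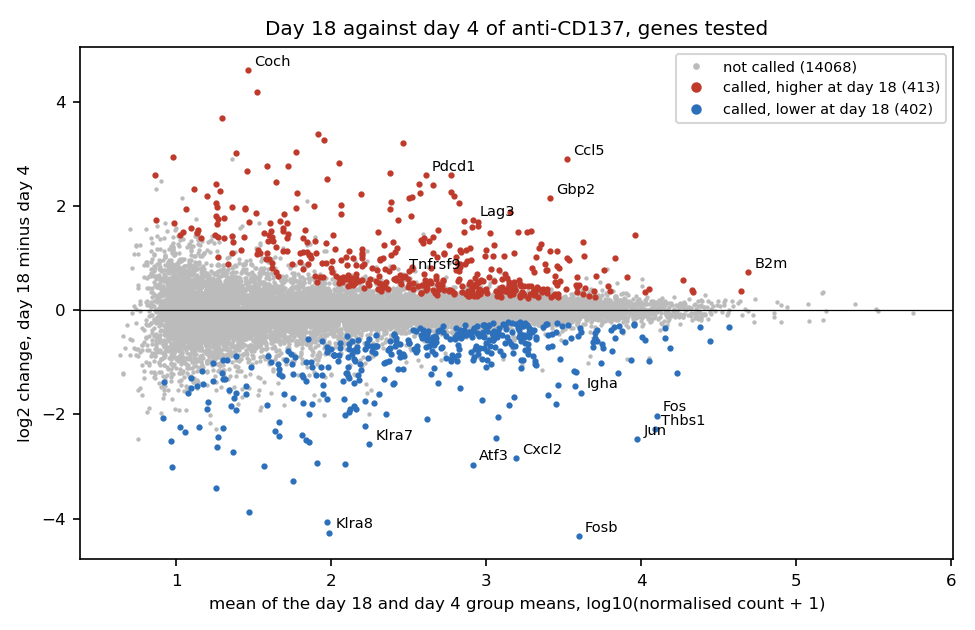
Each point is a tested gene; the horizontal axis is the mean of the day 18 and day 4 group means as log10(normalised count + 1) and the vertical axis the log2 change, day 18 minus day 4. The 413 genes called higher at day 18 are red, the 402 called lower blue, and among the genes written beside their points Ccl5, Pdcd1, Lag3 and Gbp2 stand above 0 while Fos, Fosb, Jun, Atf3, Klra7 and Klra8 stand below it.

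Tnfrsf9 (ENSMUSG00000028965.13, GRCm38 chr4:150914562-150946102, plus strand) had 360, 363 and 340 normalised counts at day 18, against 239, 152 and 280 at day 4. The Tnfrsf9 groups did not overlap, but the log2 change of 0.71 ± 0.28 (SE, n = 3 each) did not pass the test (adjusted p = 0.182). Against untreated marrow, which averaged 36 counts, the day 18 level of Tnfrsf9 was higher by a log2 change of 3.28 ± 0.28 (adjusted p = 3.86e-06). Of the 13 tested genes of CD137 and NF-kB signalling, 0 were higher and 2 were lower at day 18, with a median log2 change of -0.05. The 2 were the feedback inhibitors of NF-kB: Tnfaip3, which encodes the ubiquitin-editing enzyme A20, had 1572, 1293 and 1230 counts at day 18 against 2599, 2572 and 3335 at day 4 (log2 change -1.05 ± 0.12, adjusted p = 0.000106). Nfkbia, which encodes IκBα, averaged 2858 ± 543.6 counts at day 18 and 4138 ± 633 at day 4 (SD, n = 3 each; adjusted p = 0.0277). The Nfkbia call was lost with the estimated reads as a covariate (adjusted p = 0.149) and without day 18 replicate 2 (0.105), day 4 replicate 1 (0.0889) or day 4 replicate 3 (0.119). The subunit gene Nfkb1 averaged 5373 ± 551.4 at day 18 and 4858 ± 297.3 at day 4 and was not called (adjusted p = 0.41).

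T cell transcripts were higher at day 18. Of 23 tested T cell genes, 15 were higher and 0 lower, with a median log2 change of 0.90 beside 0.003 over all genes. Cd3g, a chain of the T cell receptor complex, had 1176, 1266 and 1568 counts at day 18 and 469, 287 and 514 at day 4 (log2 change 1.69 ± 0.21, adjusted p = 0.000233). Cd8a, the coreceptor chain of CD8 T cells, had 1953, 2114 and 2538 counts at day 18 and 625, 379 and 887 at day 4 (log2 change 1.88 ± 0.27, adjusted p = 0.000907). Every day 18 library held a higher Cd8a count than any day 4 library. Its partner chain Cd8b1 rose by a log2 change of 1.61 ± 0.26, and Bcl11b, a transcription factor that keeps T cell identity, by 1.38 ± 0.23. Cd27, a costimulatory receptor of the same family as CD137, averaged 869.3 ± 82.9 counts at day 18 and 471 ± 84.4 at day 4 (adjusted p = 0.000824). Zap70 and Lat, which relay the signal of the T cell receptor, rose by 1.07 ± 0.18 and 1.19 ± 0.22. Cd4, which some dendritic cells of mice also express, had 953, 1110 and 823 counts at day 18 and 669, 626 and 666 at day 4 and missed the threshold (log2 change 0.55 ± 0.15, adjusted p = 0.0539). Ccr7, a homing receptor gene of naive T cells, was not called and averaged 202 ± 42 counts at day 18 and 295.7 ± 30.7 at day 4 (adjusted p = 0.0848). Of 17 tested T cell receptor beta variable segments, 4 were higher and 0 lower (Trbv13-1, Trbv13-2, Trbv16 and Trbv19), and counts of such near-identical segments are uncertain. In bulk RNA a change in the number of cells of a type and in RNA per cell cannot be told apart. The count of higher T cell genes was 11 without day 4 replicate 2, the library with the lowest summed T cell counts; Cd3d, another CD3 chain, was then no longer called (adjusted p = 0.0836).

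Genes of cytotoxic effector function were higher as well. Of 15 tested, 10 were higher and 1 lower at day 18, with a median log2 change of 1.14. Ccl5, a chemokine stored and released by memory and effector CD8 T cells, had 4436, 5820 and 7233 counts at day 18, against 876, 571 and 902 at day 4 (log2 change 2.90 ± 0.24, adjusted p = 9.34e-06). Gzmk, a granzyme of T cells with a memory-like or early effector phenotype, had 872, 938 and 1202 counts at day 18, against 185, 111 and 216 at day 4 (log2 change 2.59 ± 0.26, adjusted p = 4.54e-05). The groups stood far apart for both genes. Cxcr6, a chemokine receptor of tissue-homing effector T cells, had 623, 617 and 596 counts at day 18 and 89, 105 and 153 at day 4 (log2 change 2.43 ± 0.20, adjusted p = 7.19e-06). Fasl, the death ligand, rose by a log2 change of 2.23 ± 0.25 and Gzmb, the main killing granzyme, by 2.19 ± 0.34. Nkg7, a granule membrane protein, averaged 4438 ± 652 counts at day 18 and 2213 ± 397.8 at day 4 (adjusted p = 0.000224). Gzma went the other way, with 222, 81 and 119 counts at day 18 against 422, 252 and 386 at day 4 (log2 change -1.41 ± 0.29, adjusted p = 0.0102); in mice natural killer cells express it strongly, and its call was lost with the estimated reads as a covariate (adjusted p = 0.0742). Perforin, Prf1, had 530, 551 and 495 counts at day 18 and 280, 102 and 304 at day 4 (adjusted p = 0.0174). Interferon gamma itself was low: Ifng had 55, 65 and 91 counts at day 18 and 25, 34 and 34 at day 4 (log2 change 1.14 ± 0.28, adjusted p = 0.0293). The calls of Prf1 and Ifng rest on single libraries: that of Prf1 was lost without day 18 replicate 1 (adjusted p = 0.05) or 2 (0.0688), and that of Ifng without day 18 replicate 2 (0.0809) or 3 (0.0799) or without day 4 replicate 1 (0.0858), 2 (0.0595) or 3 (0.068). Without day 18 replicate 2 the count of higher cytotoxic genes was 6.

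The transcription factors of effector T cells did not move as 1 group. Eomes, a T-box factor of effector and memory CD8 T cells, averaged 968.7 ± 59 counts at day 18 and 522.3 ± 154.5 at day 4 (log2 change 0.94 ± 0.21, adjusted p = 0.0167), a call that was lost without day 18 replicate 2 (adjusted p = 0.0607) or day 4 replicate 2 (0.0512). Its relative Tbx21, which encodes T-bet, had 149, 110 and 167 counts at day 18 and 219, 114 and 170 at day 4, with full overlap (adjusted p = 0.713). Klrg1, a receptor of terminal effector cells, averaged 214 ± 47 counts at day 18 and 97 ± 34.4 at day 4 (adjusted p = 0.0129; 0.0516 without day 18 replicate 2). Prdm1, which encodes the effector and plasma cell factor Blimp-1, had 317, 311 and 250 counts at day 18 and 103, 73 and 139 at day 4 (log2 change 1.51 ± 0.22, adjusted p = 0.00115).

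Of 13 tested inhibitory receptors and factors linked to T cell exhaustion, 6 were higher and 0 lower at day 18, with a median log2 change of 0.88. Pdcd1, which encodes PD-1, had 568, 744 and 757 counts at day 18 against 125, 71 and 159 at day 4 (log2 change 2.60 ± 0.26, adjusted p = 4.35e-05). Lag3, a receptor for MHC class II, had 1187, 1225 and 1357 counts at day 18 against 403, 340 and 392 at day 4 (log2 change 1.73 ± 0.11, adjusted p = 1.28e-06). Havcr2, which encodes TIM-3, had 500, 612 and 414 counts at day 18 and 130, 63 and 174 at day 4 (adjusted p = 0.00117). In all 3 genes the lowest day 18 sample exceeded the highest day 4 sample. Tox, the factor that sustains the exhausted state of CD8 T cells, rose by a log2 change of 2.25 ± 0.27 and its relative Tox2 by 2.83 ± 0.25, which had 190, 155 and 245 counts at day 18 and 27, 31 and 22 at day 4. Nr4a2, a nuclear receptor that is also an immediate early gene, had 312, 367 and 368 counts at day 18 and 176, 124 and 186 at day 4 (adjusted p = 0.00727; 0.0617 with the estimated reads as a covariate). Several other inhibitory receptors were not called: Ctla4 had 197, 151 and 246 counts at day 18 and 102, 87 and 204 at day 4 (adjusted p = 0.205), and Cd160 averaged 178.7 ± 26.6 at day 18 and 142.7 ± 42.5 at day 4 (adjusted p = 0.404). Of 7 tested genes of regulatory T cells, 1 was higher, the cytokine gene Il10, and 0 were with the estimated reads as a covariate. Foxp3, the defining factor gene of these cells, was not among the 7. Il2ra, which encodes the receptor chain CD25, averaged 283.3 ± 87.4 counts at day 18 and 395 ± 89.6 at day 4 (adjusted p = 0.204).

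Setting each gene against the summed counts of Cd3d, Cd3e and Cd3g in the same library describes its level per T cell transcript. That sum was 2894, 3222 and 4224 at day 18 and 1497, 948 and 1570 at day 4. Of 15 genes set against it, 8 had a higher ratio at day 18 without overlap, 3 a lower ratio without overlap and 4 overlapped. An exact permutation test of 3 samples against 3 cannot give a two-sided p below 0.1, so these ratios are given as a description. Ccl5 stood at 153, 181 and 171 counts per 100 CD3 counts at day 18 and at 58.5, 60.2 and 57.5 at day 4, a ratio of means of 2.87. Gzmk stood at 30.1, 29.1 and 28.5 at day 18 and 12.4, 11.7 and 13.8 at day 4, Pdcd1 at 19.6, 23.1 and 17.9 at day 18 and 8.35, 7.49 and 10.1 at day 4. Relative to the CD3 chains these 3 genes stood higher at day 18. They are, with Tox2 and Cxcr6, among the 12 genes that rose most in these same libraries. Their higher ratios follow in part from that choice and give no further support. The share of all genes with such a ratio was not computed. Lag3 overlapped, with 41, 38 and 32.1 at day 18 and 26.9, 35.9 and 25 at day 4, and so did Gzmb, Havcr2 and Ifng. The genes with a lower ratio were Cd4, Eomes and Tnfrsf9, which stood at 12.4, 11.3 and 8.05 at day 18 and at 16, 16 and 17.8 at day 4. Natural killer cells and some other cells express several of these genes too, and their part in the ratios was not tested.

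**Figure D2:**
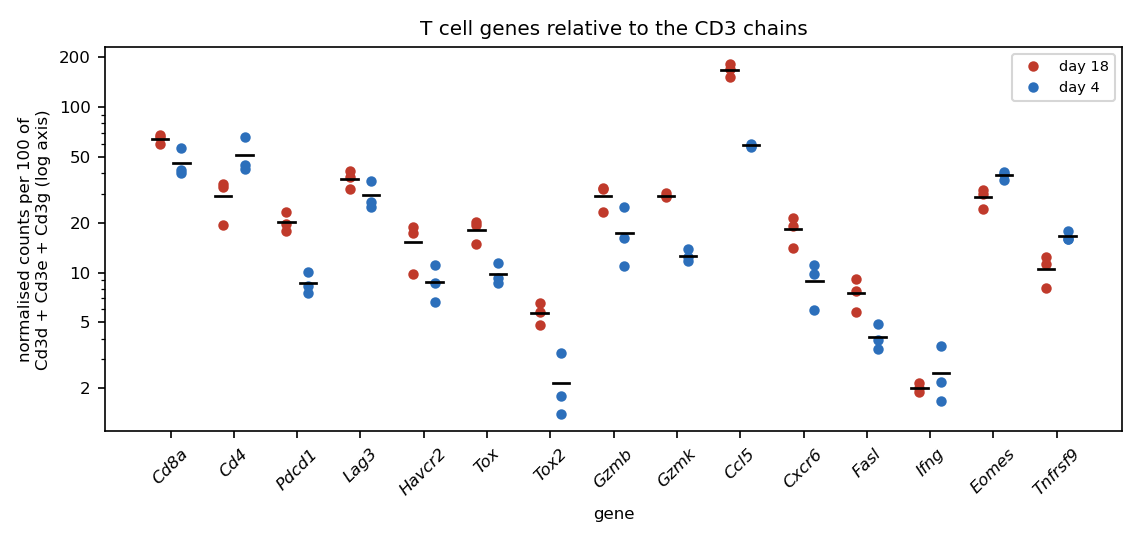
Each point is a library, with day 18 left (red) and day 4 right (blue) for each of 15 genes; the vertical log axis gives normalised counts per 100 counts of Cd3d, Cd3e and Cd3g together, and bars mark the mean of 3. Ccl5, Gzmk, Pdcd1, Tox and Tox2 were higher at day 18 without overlap, and Tnfrsf9, Eomes and Cd4 lower.

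Genes induced by interferon gamma were higher at day 18. Of 25 tested, 18 were higher and 0 lower at day 18, with a median log2 change of 1.13. The promoters of 5 of them are shown because they carry the short elements through which this response is known to act: the gamma-activated site, searched as TTCNNNGAA, and the core of the interferon response element bound by IRF factors, searched as GAAANNGAA. Both strands were searched; the first motif reads the same on both, and the 2 motifs can share bases where they adjoin. Sequences are from RefSeq, build GRCm38.p6, written in the direction of the gene from 130 bases before to 30 bases after the start site, with matches in capitals. Irf1 lies at chr11:53769884-53770043 (plus strand), Tgtp1 at chr11:48992217-48992376 (minus), Igtp at chr11:58199426-58199585 (plus), Gbp2 at chr3:142620533-142620692 (plus) and Gbp3 at chr3:142559914-142560073 (plus).
Irf1: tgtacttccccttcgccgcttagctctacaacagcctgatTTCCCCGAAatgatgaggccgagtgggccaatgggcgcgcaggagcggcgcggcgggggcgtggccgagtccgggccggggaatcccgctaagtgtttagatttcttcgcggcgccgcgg
Tgtp1: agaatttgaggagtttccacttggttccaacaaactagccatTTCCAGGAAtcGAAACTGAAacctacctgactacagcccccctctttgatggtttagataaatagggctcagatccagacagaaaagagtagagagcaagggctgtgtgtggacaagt
Igtp: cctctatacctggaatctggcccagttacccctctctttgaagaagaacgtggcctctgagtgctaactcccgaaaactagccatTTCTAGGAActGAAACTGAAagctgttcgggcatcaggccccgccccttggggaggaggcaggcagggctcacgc
Gbp2: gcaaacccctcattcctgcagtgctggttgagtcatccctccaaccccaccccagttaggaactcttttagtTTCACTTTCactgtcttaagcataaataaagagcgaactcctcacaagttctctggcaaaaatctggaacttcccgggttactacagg
Gbp3: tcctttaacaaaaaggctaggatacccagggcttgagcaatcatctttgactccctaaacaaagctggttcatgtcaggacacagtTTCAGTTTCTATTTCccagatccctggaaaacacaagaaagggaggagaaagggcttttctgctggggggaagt

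In Irf1 the capitals mark a gamma-activated site that begins 90 bases before the start. In Tgtp1 they mark such a site at 88 bases and an interferon response core at 77 bases before the start, and in Igtp the same pair at 45 and 34 bases. In Gbp2 and Gbp3 they mark interferon response cores on the opposite strand, at 58 bases before the start in Gbp2 and at 44 and 38 in Gbp3. RefSeq windows of 250 bases before to 50 after the start were found for 9904 of the tested genes. More than 1 window was found for 1915 of these, and a gene counted when any of its windows held the motif. The interferon response core occurred in 16 of 17 interferon gamma list genes with a window (94.1%), in 21.3% of the genes called higher, in 13.7% of those called lower and in 9.3% of all. The gamma-activated site occurred in 47.1% of the list, in 13.3% of the higher, 6.9% of the lower and 8.6% of all genes. List genes that were called higher count in the shares of the list and of the higher genes, which are therefore not separate. For the AP-1 motif TGANTCA the shares were 9.1% of the higher, 6.9% of the lower and 6.6% of all genes, with 0 of 19 immediate early genes. The E2F motif TTTCCCGC stood in 0.7% of the higher, 2.1% of the lower and 2.4% of all genes, and the cAMP response element TGACGTCA in 3.1%, 4.8% and 3.3%. A match of letters is a description and not a binding site.

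Irf1, the transcription factor at the head of this programme, had 5737, 5416 and 5976 counts at day 18 and 3118, 2662 and 2586 at day 4 (log2 change 1.04 ± 0.08, adjusted p = 6.41e-06). The groups did not overlap for Irf1. Tgtp1, an immunity-related GTPase that attacks the vacuoles of intracellular parasites, had 911, 691 and 683 counts at day 18 and 186, 118 and 128 at day 4 (log2 change 2.41 ± 0.18, adjusted p = 5e-06). Its relative Igtp rose by a log2 change of 1.53 ± 0.15 and Irgm2 by 1.51 ± 0.18; the annotated positions of Igtp and Irgm2 overlap on chromosome 11, and Tgtp1 is nearly identical to Tgtp2, so the split of reads within these pairs is uncertain. Gbp2, a guanylate-binding protein, had 5011, 4140 and 3260 counts at day 18 and 1451, 610 and 852 at day 4 (log2 change 2.16 ± 0.24, adjusted p = 0.000113). Gbp3, Gbp4, Gbp5, Gbp6, Gbp7 and Gbp8 were higher as well, with log2 changes between 1.04 for Gbp4 and 1.82 for Gbp6, while Gbp9 was not called (log2 change 0.43 ± 0.16, adjusted p = 0.165). Gbp2b, a close copy beside Gbp2, had 64, 116 and 31 counts at day 18 and 27, 2 and 16 at day 4; its adjusted p of 0.048 held only without day 18 replicate 3 or day 4 replicate 1, and without any other single library it lay between 0.0545 and 0.208. With the estimated reads as a covariate the count of higher interferon gamma genes was 15; the call of Gbp7 was lost (adjusted p = 0.0783) and so was that of Gbp2b (0.192).

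Serpina3f, a protease inhibitor induced by interferon, had 1260, 1035 and 937 counts at day 18 and 342, 243 and 199 at day 4 (log2 change 2.07 ± 0.17, adjusted p = 8.7e-06). Cxcl9, which draws T cells that carry Cxcr3, had 857, 651 and 641 counts at day 18 and 355, 158 and 258 at day 4 (log2 change 1.54 ± 0.25, adjusted p = 0.00272). The related chemokine Cxcl10 overlapped, with 344, 172 and 182 counts at day 18 and 193, 104 and 180 at day 4 (adjusted p = 0.357). Cd274, which encodes the PD-1 ligand PD-L1, averaged 782.3 ± 171.1 counts at day 18 and 525.3 ± 57.7 at day 4 (adjusted p = 0.0319); the call was lost without day 18 replicate 1 (adjusted p = 0.118) or 2 (0.108), without day 4 replicate 2 (0.131) or 3 (0.0881) and with the estimated reads as a covariate (0.18). Antiviral genes of the type I interferon response varied widely within a group. Their summed counts were 52290, 33199 and 26131 at day 18 and 40272, 23617 and 27496 at day 4. Their median log2 change was 0.22, and it was -0.14 without day 18 replicate 1 and 0.37 without day 18 replicate 3. Of 19 tested, 1 was higher and 0 lower. That gene was Zbp1, a sensor of nucleic acids, with 4257, 2652 and 2221 counts at day 18 and 1775, 949 and 1215 at day 4 (adjusted p = 0.0167), a call lost without day 18 replicate 1 (0.0648), day 4 replicate 2 (0.0784) or day 4 replicate 3 (0.0669) and with the estimated reads as a covariate (0.157).

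All 13 tested genes of the MHC class I presentation list were higher at day 18, with a median log2 change of 0.77. The list was written with 19 genes, and only these 13 were in the table. The heavy chain genes among them were H2-M3, H2-Q4, H2-Q6, H2-T22 and H2-T23, which are non-classical. Classical heavy chain genes were therefore not among the values tested. B2m, the light chain of all class I molecules, had 59094, 65838 and 58186 counts at day 18 and 41507, 34217 and 35253 at day 4 (log2 change 0.73 ± 0.10, adjusted p = 0.000505). H2-Q6, a non-classical heavy chain, had 12947, 12815 and 13987 counts at day 18 and 5241, 4889 and 4555 at day 4 (log2 change 1.44 ± 0.09, adjusted p = 1.28e-06). Heavy chain genes of this cluster share long stretches of sequence, so reads may be split among them. Nlrc5, the transactivator of class I genes, had 6885, 5995 and 5030 counts at day 18 and 2552, 2261 and 2316 at day 4 (log2 change 1.32 ± 0.12, adjusted p = 1.37e-05). The peptide transporter gene Tap1 rose by a log2 change of 1.01 ± 0.10, the immunoproteasome gene Psmb10 by 0.82 ± 0.07, and H2-M3, which presents formylated bacterial peptides, by 1.04 ± 0.08. H2-T22, a non-classical heavy chain seen by some gamma delta T cells, averaged 3933 ± 113.8 counts at day 18 and 1800 ± 283.6 at day 4 (adjusted p = 7.19e-06). The count was 12 with the estimated reads as a covariate, where Erap1 was lost (adjusted p = 0.051). It was also 12 without day 4 replicate 2 and without day 4 replicate 3, where Tap2 was lost. Ciita, the transactivator of class II genes, averaged 633 ± 175.2 counts at day 18 and 460.3 ± 57.7 at day 4 and was not called (adjusted p = 0.316). Of 10 genes written for the class II list, only 2, Ciita and Ctss, were in the table. No class II chain gene was tested, so class I and class II genes cannot be compared here.

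**Figure D3:**
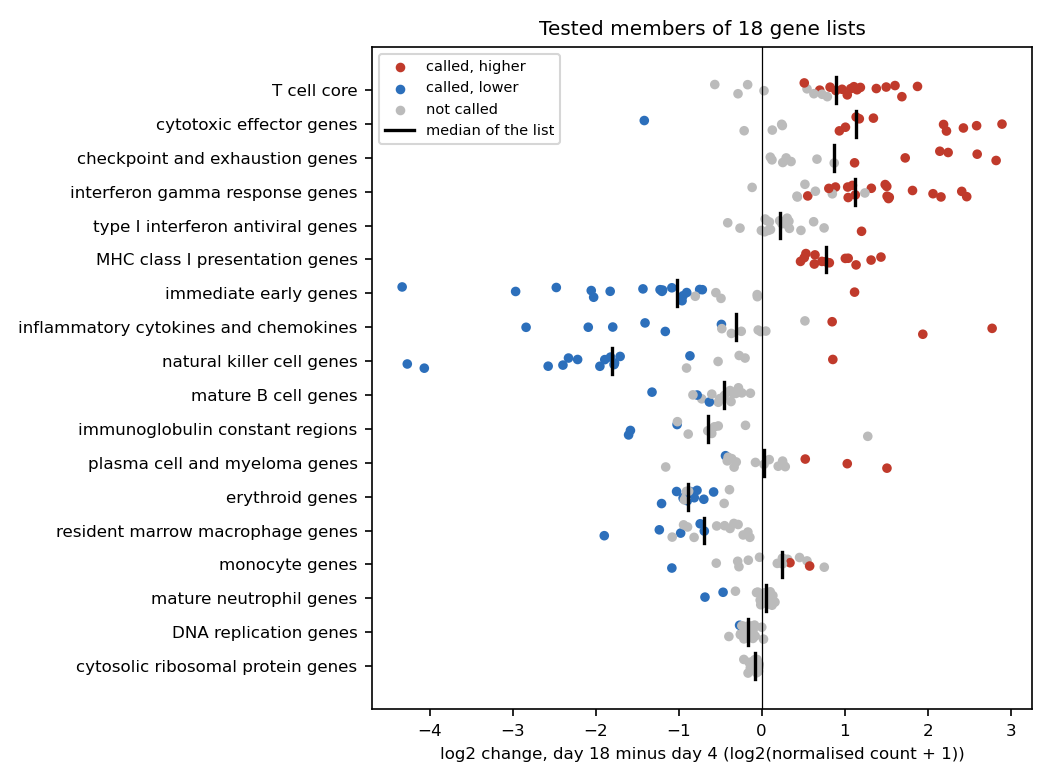
Each point is a tested gene of 1 of 18 lists, placed by its log2 change, day 18 minus day 4; red and blue mark genes called higher and lower, grey those not called, and the black bar the list's median. All 13 tested genes of the MHC class I list lie to the right of 0, 16 of 22 immediate early genes are called lower, and ribosomal protein genes lie close to 0.

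Immediate early genes, which cells transcribe within minutes of a stimulus, were lower at day 18. Of 22 tested, 16 were lower and 1, Nr4a2, was higher at day 18, with a median log2 change of -1.02. Fos had 5573, 3858 and 5476 counts at day 18 against 17654, 18879 and 23717 at day 4 (log2 change -2.02 ± 0.25, adjusted p = 0.000233). Fosb had 353, 284 and 486 counts at day 18 against 5725, 7744 and 9021 at day 4, the largest fall among the genes named by rule (log2 change -4.33 ± 0.48, adjusted p = 0.000104). Their partner Jun had 4002, 2035 and 2811 counts at day 18 against 15636, 14593 and 17179 at day 4 (log2 change -2.47 ± 0.25, adjusted p = 4.27e-05). These genes encode subunits of the transcription factor AP-1. Jund, another subunit, had 432, 403 and 545 counts at day 18 and 1684, 2156 and 1874 at day 4 (adjusted p = 1.28e-06), whereas Fosl2 averaged 3698 ± 180.6 at day 18 and 3833 ± 89.7 at day 4 (adjusted p = 0.831). Atf3, a stress-induced factor, had 206, 155 and 183 counts at day 18 and 1490, 1035 and 1823 at day 4 (log2 change -2.96 ± 0.19, adjusted p = 1.5e-06). Egr1 fell by 1.82 ± 0.24 on the log2 scale. Klf2 and Klf6, zinc finger factors, fell by 1.43 ± 0.13 and 0.96 ± 0.07, and Zfp36, which destabilises cytokine mRNA, by 1.20 ± 0.15. Ier3, an early response gene linked to cell survival, fell by 1.22 ± 0.10 and the nuclear receptor gene Nr4a1 by 1.08 ± 0.15. Egr2, a relative of Egr1, overlapped, with 71, 55 and 61 counts at day 18 and 91, 53 and 55 at day 4. Summed over the list, counts were 45361, 35761 and 41014 at day 18 and 104053, 104876 and 119893 at day 4. These genes also respond to the handling of tissue, and its part in the result was not tested. The list kept 15 lower genes with the estimated reads as a covariate.

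Some AP-1 genes were still above untreated marrow at day 18. Fos averaged 2562 counts in untreated marrow, 20080 at day 4, 5503 at day 11 and 4969 at day 18, and day 18 was above untreated marrow (adjusted p = 0.0219). Jun was above it as well (log2 change 1.20 ± 0.25, adjusted p = 0.00756), while Fosb was not called (adjusted p = 0.067). Klf6 averaged 5568 counts in untreated marrow, 11370 at day 4, 5583 at day 11 and 5859 at day 18 (day 18 against untreated, adjusted p = 0.606).

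Inflammatory cytokines and chemokines moved in both directions, with 6 of 16 lower and 3 higher at day 18. Cxcl2, a chemokine that draws neutrophils, had 442, 276 and 365 counts at day 18 and 2294, 1704 and 4182 at day 4 (log2 change -2.84 ± 0.33, adjusted p = 0.000138). Osm, which encodes oncostatin M, had 2537, 1888 and 2408 counts at day 18 and 4870, 4898 and 5400 at day 4 (adjusted p = 0.000831). Ptgs2, which makes the prostaglandin precursor, had 198, 155 and 122 counts at day 18 and 651, 583 and 769 at day 4 (adjusted p = 0.00543; 0.0523 with the estimated reads as a covariate), and Ccrl2, a decoy-like chemokine receptor, averaged 138 ± 36.6 at day 18 and 369.7 ± 108.9 at day 4 (adjusted p = 0.00222). The higher genes were Ccl8, Il10 and Il27. Ccl8, a monocyte chemoattractant, had 51, 79 and 68 counts at day 18 and 10, 8 and 8 at day 4 (log2 change 2.78 ± 0.44, adjusted p = 0.002). Il10, an anti-inflammatory cytokine gene, had 44, 38 and 42 counts at day 18 and 13, 4 and 18 at day 4 (adjusted p = 0.0218), and averaged 10 in untreated marrow and 10.3 at day 11. Il27 averaged 198.7 ± 24.2 at day 18 and 112.7 ± 35.9 at day 4 (adjusted p = 0.0329). The calls of Il10 and Il27 were lost without day 18 replicate 1 (adjusted p = 0.0682 for Il10 and 0.111 for Il27), without day 18 replicate 2 (0.0675 and 0.107) and without day 4 replicate 2 (0.0701 and 0.129), that of Il27 also without day 4 replicate 3 (0.149) or day 11 replicate 1 (0.0504). Without any 1 of day 18 replicates 1 and 2 and day 4 replicate 2, and with the estimated reads as a covariate, the count of higher genes was 1. With that covariate the adjusted p was 0.164 for Il10 and 0.202 for Il27, and 4 genes of the list were lower. Tnf averaged 343.7 ± 38.1 at day 18 and 335.7 ± 73.5 at day 4 (adjusted p = 0.894), and Il1b 1193 ± 175.2 at day 18 and 1529 ± 146.3 at day 4 (adjusted p = 0.309).

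Natural killer cell genes were lower at day 18. Of 18 tested, 13 were lower and 1 higher at day 18, with a median log2 change of -1.80. Ncr1, which encodes the defining receptor NKp46, had 113, 20 and 63 counts at day 18 and 372, 163 and 250 at day 4 (log2 change -2.22 ± 0.45, adjusted p = 0.0102; 0.0617 with the estimated reads as a covariate). Klrb1c, which encodes NK1.1 in this strain, had 78, 26 and 72 counts at day 18 and 249, 171 and 183 at day 4 (adjusted p = 0.005). The groups did not overlap for either gene. The Ly49 receptors, encoded by the Klra genes, recognise MHC class I molecules; they lie side by side on chromosome 6 and are so alike that their split of reads is uncertain. Klra7 had 57, 33 and 59 counts at day 18 and 389, 224 and 282 at day 4 (log2 change -2.57 ± 0.23, adjusted p = 1.39e-05). Klra4 had 25, 1 and 18 counts at day 18 and 204, 112 and 198 at day 4 (adjusted p = 0.00457), and Klra6 had 16, 2 and 8 at day 18 and 82, 41 and 65 at day 4 (adjusted p = 0.00443). Klra1 and Klra3 fell by 1.77 ± 0.24 and 1.82 ± 0.30 on the log2 scale, and Klrc2, an NKG2 receptor gene of the same chromosome, by 1.70 ± 0.23. Klra8 had 26, 0 and 21 counts at day 18 and 239, 87 and 200 at day 4 (adjusted p = 0.0172), a call lost without day 4 replicate 1 (adjusted p = 0.054), without day 4 replicate 3 (0.0713) and with the estimated reads as a covariate (0.0717). Xcl1, a chemokine that draws cross-presenting dendritic cells, had 34, 7 and 26 counts at day 18 and 138, 74 and 104 at day 4 (adjusted p = 0.00494). Il2rb, the receptor chain for interleukins 2 and 15 that effector T cells share, was the higher member, with 3376, 3516 and 4077 counts at day 18 and 2410, 1427 and 2363 at day 4 (adjusted p = 0.0161; 0.0502 without day 18 replicate 2 and 0.0512 without day 4 replicate 2). Klrk1, which encodes NKG2D and is also expressed by effector CD8 T cells, was not called (log2 change -0.52 ± 0.20, adjusted p = 0.164). The list had 9 lower members with the estimated reads as a covariate.

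Antibody genes of the B lineage were lower in part. Of 11 tested immunoglobulin constant regions, 3 were lower and 0 higher, with a median log2 change of -0.65. Igha, the constant region of IgA, had 2603, 1104 and 2660 counts at day 18 and 5734, 4764 and 7481 at day 4 (log2 change -1.58 ± 0.31, adjusted p = 0.00858). Igkc, the kappa light chain region, had 4347, 2366 and 4346 counts at day 18 and 7880, 5921 and 7958 at day 4 (adjusted p = 0.0179), and Ighg2c averaged 104.3 ± 44.4 at day 18 and 302 ± 16.5 at day 4 (adjusted p = 0.0146). Day 18 replicate 2 was the lowest library for each of the 3, and without it the calls of Igkc (adjusted p = 0.0676) and Ighg2c (0.0756) were lost; without day 4 replicate 3 they were 0.0818 and 0.0563, and without day 4 replicate 1 that of Igkc was 0.0547. With the estimated reads as a covariate that of Igkc was 0.0644. The count of lower constant regions was 1 without day 18 replicate 2 and 1 without day 4 replicate 3. Ighg2b differed widely within a group, with 3053, 1493 and 1989 counts at day 18 and 11021, 754 and 8985 at day 4 (adjusted p = 0.526). Ighm, the region of IgM, averaged 22540 ± 4613 at day 18 and 25760 ± 5037 at day 4 (adjusted p = 0.626). Of 91 heavy chain variable segments 11 were lower and 0 higher, and of 79 kappa variable segments 7 were lower and 0 higher. Over all tested genes 2.70% were lower and 2.77% higher. The median log2 changes of the segments were -0.68 and -0.96. Counts of such near-identical segments are uncertain, and the segments are not independent of each other. Of 17 plasma cell and myeloma genes, 3 were higher and 1 lower, with a median log2 change of 0.03. The higher ones were Prdm1 and Cd28, which T cells also express, and Ccnd1 (adjusted p = 0.0437), whose call was lost without any 1 of 11 of the 12 libraries (adjusted p between 0.0535 and 0.195) and with the estimated reads as a covariate (0.196). The lower one was Ell2, an elongation factor of antibody secretion, at 737.3 ± 90.9 counts at day 18 and 992.7 ± 42.7 at day 4 (adjusted p = 0.00658). Without day 18 replicate 1 the count of lower genes was 3. Sdc1, which encodes the plasma cell marker CD138, had 299, 282 and 231 counts at day 18 and 357, 360 and 351 at day 4 (adjusted p = 0.225), and Jchain, the joining chain of IgA and IgM, 2071, 788 and 1543 at day 18 and 3107, 2425 and 3699 at day 4 (adjusted p = 0.0653). Of 18 mature B cell genes 3 were lower, and 5 were without day 18 replicate 1 or day 4 replicate 1. Fcer2a, the low-affinity IgE receptor CD23, had 143, 90 and 143 counts at day 18 and 271, 324 and 331 at day 4 (adjusted p = 0.00463), and Bank1, a B cell scaffold protein, fell by 0.78 ± 0.13 on the log2 scale. Fcrl1, the other one, was lost without any 1 of 8 libraries (adjusted p between 0.0576 and 0.197) and with the estimated reads as a covariate (0.214). Of 9 B cell precursor genes 0 were called, with a median log2 change of -0.31, and 1 had an unadjusted limma p below 0.05.

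Red cell genes were lower at day 18, with 11 of 18 tested lower, 0 higher and a median log2 change of -0.89. Slc4a1, the anion exchanger of the red cell membrane, had 5679, 3719 and 3503 counts at day 18 and 7972, 9833 and 11564 at day 4 (log2 change -1.21 ± 0.20, adjusted p = 0.00319). The groups did not overlap for Slc4a1. The spectrin gene Sptb fell by 0.94 ± 0.13 on the log2 scale, Add2, which encodes another protein of the membrane skeleton, by 0.86 ± 0.14, and the water channel gene Aqp1 by 0.78 ± 0.12. Haemoglobin genes varied more within a group: Hba-a1 had 8123, 3383 and 5548 counts at day 18 and 8298, 9430 and 13493 at day 4 and was not called (adjusted p = 0.0664). The count of lower genes was 7 with the estimated reads as a covariate and 15 without day 18 replicate 1.

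Resident marrow macrophage genes had 5 of 17 lower and 0 higher, with a median log2 change of -0.69. Cd163, the haemoglobin scavenger receptor, had 204, 306 and 269 counts at day 18 and 484, 653 and 694 at day 4 (log2 change -1.23 ± 0.19, adjusted p = 0.00136). Fcna, a lectin of tissue macrophages, had 30, 80 and 80 counts at day 18 and 160, 283 and 228 at day 4 (adjusted p = 0.00479; 0.0604 with the estimated reads as a covariate). Hmox1, which breaks down haem, averaged 1172 ± 117 at day 18 and 1889 ± 154.6 at day 4 (adjusted p = 0.00513). Mrc1, the mannose receptor, averaged 406 ± 124.8 at day 18 and 781.3 ± 110.1 at day 4 (adjusted p = 0.00897; 0.11 with the estimated reads as a covariate). The complement genes C1qa, C1qb and C1qc of the same cells overlapped between the groups (adjusted p = 0.253, 0.613 and 0.41). With the estimated reads as a covariate the count was 2, and without day 18 replicate 2 it was 9.

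Other marrow lineages showed few calls in number. Over all tested genes 2.77% were higher and 2.70% lower, shares that a single call in lists this short already exceeds. Of 18 mature neutrophil genes 2 were lower, and the median log2 change was 0.05. Il1r2, the decoy receptor for interleukin 1, lost its call without any 1 of the 6 day 18 and day 4 libraries (adjusted p between 0.0578 and 0.0957) and with the estimated reads as a covariate (0.11). Trem1, a receptor that amplifies inflammation, had 2085, 1936 and 2063 counts at day 18 and 3334, 3102 and 3326 at day 4 (log2 change -0.68 ± 0.08, adjusted p = 0.000152). Of 16 monocyte genes 2 were higher and 1 lower, of 13 dendritic cell genes 1 was higher and 1 lower, and of 10 eosinophil genes 1 was higher and 1 lower. The lower monocyte gene was Nr4a1, already counted among the immediate early genes. The higher monocyte genes were Spn, which encodes CD43 (adjusted p = 0.012), and Klra2, a Ly49 gene (adjusted p = 0.0312). The call of Spn was lost without day 18 replicate 2 (0.0674), day 4 replicate 2 (0.0582) and with the covariate of reads (0.0508). That of Klra2 was lost without day 18 replicate 1 (0.112) or 2 (0.106), without day 4 replicate 2 (0.129) or 3 (0.118) and with that covariate (0.124). Without day 18 replicate 3, 5 monocyte genes were higher, and without day 18 replicate 2 or day 4 replicate 2, or with the covariate, 0 were. For dendritic cell genes the count of higher ones was 3 without day 18 replicate 3 and 0 without day 18 replicate 2, day 4 replicate 2 or day 4 replicate 3. Their count of lower ones was 0 without day 4 replicate 1 or 3, and with the covariate both counts were 0. The higher eosinophil gene, Ear6 (adjusted p = 0.0416), was not called without day 18 replicate 2 or 3, without any 1 of the day 4 replicates or with the covariate. Ccr3, the eotaxin receptor, had 96, 86 and 101 counts at day 18 and 173, 234 and 230 at day 4 (adjusted p = 0.0044; 0.0589 with the estimated reads as a covariate). Of 13 megakaryocyte and platelet genes 1 was lower: Thbs1, which encodes thrombospondin 1 and which monocytes also make, had 5505, 4491 and 2650 counts at day 18 and 13336, 25278 and 22242 at day 4 (log2 change -2.28 ± 0.25, adjusted p = 0.000107). Among 20 DNA replication genes 1 was lower, Rrm2 (adjusted p = 0.0456), a subunit of ribonucleotide reductase. That count was 3 without day 18 replicate 3, 2 without day 4 replicate 1, and 0 without day 18 replicate 1 or 2, without day 4 replicate 2 or 3 or with the covariate. At an unadjusted limma p below 0.05 there were 10 of the 20, against 18% of all tested genes, and 10 were lower without overlap, against 9.79% of all; their median log2 change was -0.17. By limma's test 0 of 18 mitosis genes, 0 of 21 cytosolic ribosomal protein genes and 0 of 11 endothelial genes were called, with 2, 0 and 3 of them at an unadjusted p below 0.05. The proliferation marker Mki67 had 21319, 22462 and 16369 counts at day 18 and 21619, 22563 and 23638 at day 4. Of 16 genes of the unfolded protein response 4 were higher and 2 lower; Dnajb9, a chaperone cofactor of the endoplasmic reticulum, had 710, 672 and 727 counts at day 18 and 1393, 1404 and 1539 at day 4 (log2 change -1.04 ± 0.08, adjusted p = 6.41e-06), while Creld2, a partner of misfolded proteins, rose by 0.50 ± 0.09. Pdia4, a disulphide isomerase, averaged 2812 ± 276.3 at day 18 and 2119 ± 59.9 at day 4 (adjusted p = 0.00703), and Atf4, a stress-response factor, 4089 ± 743.2 at day 18 and 5890 ± 247.7 at day 4 (adjusted p = 0.00557). With the estimated reads as a covariate these became 0.064 for Pdia4 and 0.0717 for Atf4. The count of higher genes in that list was 2 without day 4 replicate 3 and with the estimated reads as a covariate.

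The remaining genes with the largest changes stand in no list. Coch, which encodes the extracellular matrix protein cochlin, had 59, 61 and 38 counts at day 18 and 0, 9 and 0 at day 4 (log2 change 4.61 ± 0.75, adjusted p = 0.00248). Faxc had 66, 78 and 40 counts at day 18 and 5, 0 and 5 at day 4 (adjusted p = 0.000547). Because day 4 counts of Coch and Faxc reach 0, the size of these changes depends on the added count of 1. Mrc2, an endocytic receptor for collagen, had 113, 98 and 101 counts at day 18 and 12, 8 and 17 at day 4 (log2 change 3.03 ± 0.38, adjusted p = 0.000288). Tmprss13, a transmembrane serine protease, averaged 90.3 ± 22.5 at day 18 and 12.3 ± 2.89 at day 4, and Apol11a, of the apolipoprotein L family, 161.7 ± 57.7 at day 18 and 15.7 ± 4.73 at day 4. On the falling side, Rgs1, a brake on chemokine receptor signalling, had 408, 315 and 351 counts at day 18 and 1774, 1995 and 2083 at day 4 (log2 change -2.45 ± 0.23, adjusted p = 2.61e-05). Col14a1, a fibril-associated collagen, had 12, 4 and 16 counts at day 18 and 85, 94 and 122 at day 4, and Cd209f, a lectin of the DC-SIGN family, 5, 0 and 5 at day 18 and 22, 68 and 71 at day 4. Lad1, a basement membrane protein, had 26, 5 and 15 counts at day 18 and 87, 48 and 89 at day 4; its adjusted p of 0.0166 was 0.0725 without day 18 replicate 2, 0.052 without day 4 replicate 1, 0.0775 without day 4 replicate 3 and 0.0995 with the estimated reads as a covariate.

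Day 11 lay between the 2 days for most called genes. The day 11 mean stood between the day 4 and day 18 means for 384 of the 413 higher and 342 of the 402 lower genes. On a log2 scale from 0 at day 4 to 1 at day 18, its median position was 0.63 for the higher and 0.55 for the lower genes. These counts share the day 4 and day 18 samples with the calls and so describe them without further support. Between day 18 and day 11, 1 gene (0.00672% of those tested) was called, Lag3, which was higher at day 18 and averaged 352.3 counts in untreated marrow, 378.3 at day 4, 688 at day 11 and 1256 at day 18 (day 18 minus day 11: log2 change 0.87 ± 0.11, adjusted p = 0.0168). At an unadjusted p below 0.05, 1040 genes (6.99%) differed between these days, and day 18 lay above day 11 without overlap for 760 genes (5.11%) and below it for 798 (5.36%). No gene was called there without day 18 replicate 2, or without any 1 of the day 11 replicates. Against untreated marrow, 1369 genes (9.2%) were called, of which 787 (5.29%) were higher at day 18 and 582 (3.91%) lower. A log2 change of at least 1 was reached by 332 of the higher (2.23%) and 167 of the lower genes (1.12%). The number called was 804 without day 18 replicate 2, 863 without untreated replicate 2 and 810 without untreated replicate 3. Gzmk averaged 6 counts in untreated marrow, 170.7 at day 4, 761 at day 11 and 1004 at day 18, and Pdcd1 18, 118.3, 366.7 and 689.7 at the same times. Klra7 averaged 176.3, 298.3, 77.3 and 49.7 at these times, and its day 18 level was below untreated marrow (log2 change -1.85 ± 0.23, adjusted p = 0.000154).

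**Figure D4:**
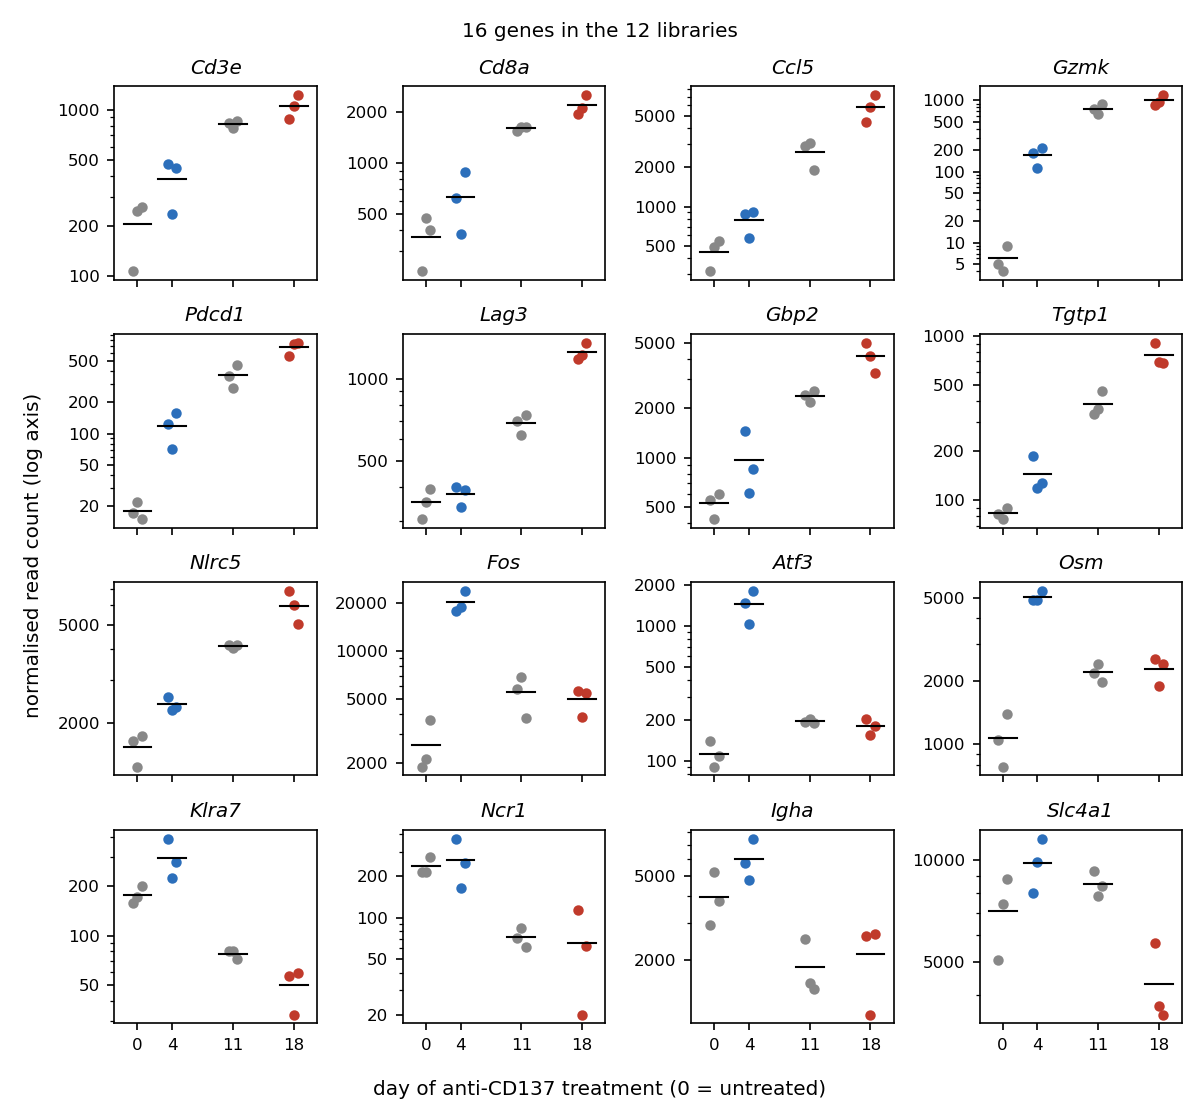
Normalised read counts of 16 genes (vertical log axes) in each of the 12 libraries against the day of treatment; day 18 is red, day 4 blue and the other groups grey, and bars mark the mean of 3. The means of Gzmk, Pdcd1 and Nlrc5 are higher at each later day, whereas those of Fos, Atf3 and Osm are highest at day 4. The rise of Gzmk, Pdcd1 and Nlrc5 from day 11 to day 18 was not called.

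**Figure D5:**
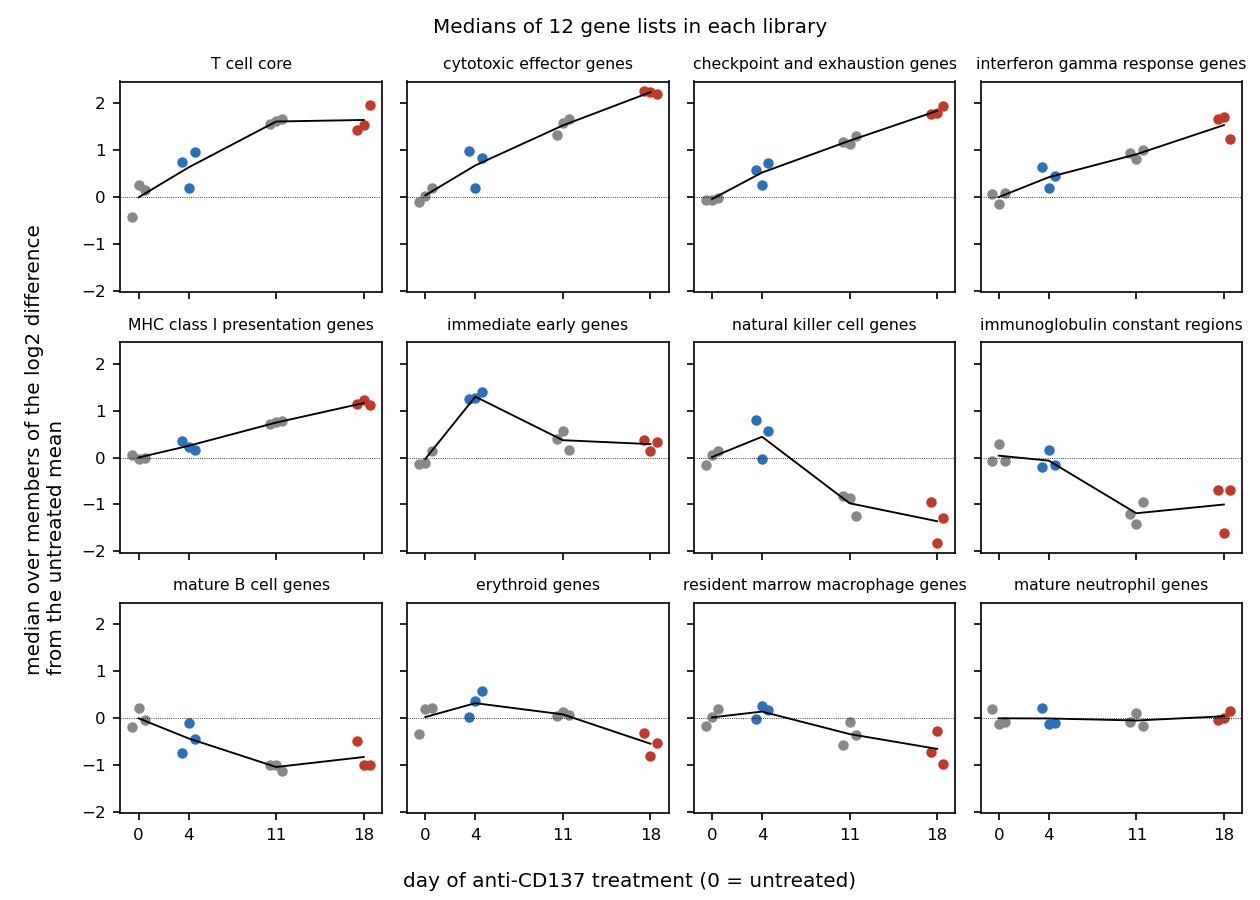
For 12 gene lists, each point is a library and gives the median over the tested members of the log2 difference from that member's untreated mean, against the day of treatment; lines join the means of 3. The immediate early list stands at 0.15 to 0.37 at day 18 and 1.24 to 1.39 at day 4, and the natural killer list at -1.83 to -0.95 at day 18 and -0.03 to 0.80 at day 4.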

How the data were processed

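RNA sequencing of total bone marrow gave 1 table of 12 samples, 3 per group. Its values are of unit score: per the file headers they are normalised counts, which the authors rounded to whole numbers before they deposited them. The scaling method is not given in the sources used here. The aligner STAR 2.3.0, featureCounts 1.4.6 of Subread, the package limma and the build GRCm38 appear in the submitters' processing notes, without saying what each did. Because the values are not raw counts, no count model was used. Assigned reads per library were estimated from the spacing of low whole values, which assumes that 1 factor scales all genes of a library, and the number of reads limits the precision of low counts.

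Tests took the genes that reached 10 normalised counts in 3 or more samples and ran on log2(value + 1) with limma 3.58.1 (R 4.3.3; trend, all 12 samples in 1 fit, 3 contrasts), adjusted by the Benjamini-Hochberg method over all tested genes. Fold changes on this scale understate the change of low genes. The fit was tested on simulated data. The gene lists and the members were chosen with earlier results of these data known. The text names Tnfrsf9. It names the 12 genes that rose most and the 12 that fell most, out of those called without overlap and with a mean of 50 counts in 1 group, predicted genes, pseudogenes and receptor segments aside. From a list that had 3 calls or more it names the 4 genes of smallest adjusted p, and further members in describing a list; some of these genes are not reported here. Replicate numbers follow sample order only. Alternatives were other pseudocounts, filters, scalings, weights and covariates, a minimum change and leaving out each library. Counts of list members without day 18 replicate 3 and with estimated reads as a covariate were added after seeing the data. Promoter sequences are from RefSeq, GRCm38.p6, matched by symbol.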

Additional observations from a re-analysis of the deposited data

How the results depend on the processing

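No paired analysis was possible because the labels give the samples no replicate numbers that the groups share. For day 18 versus day 4 the 815 calls were 479 with only those 2 groups fitted, 543 with no intensity trend, 1844 with sample weights, 365 with estimated reads as a covariate and 292 with a log2 change of at least 1, and between 433 and 1120 with 1 library left out. For day 18 versus day 11 the 1 call became 3 with no filter, 14 with only those 2 groups, 151 with sample weights, and 0 with no intensity trend or with a log2 change of at least 1, and between 0 and 28 with 1 library left out. For day 18 versus untreated marrow the 1369 calls were 2056 with sample weights and 499 with a log2 change of at least 1, and between 804 and 1413 with 1 library left out. Other pseudocounts, filters, scalings and fits moved these counts by less than 1.5 times. No named or listed gene called between day 18 and day 4 changed direction under any of these alternatives. Of the 163 such genes, 117 stayed called with the covariate, and 120 with any 1 library left out. The causes of these shifts were not tested.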

Other observations

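Some gene families outside the lists were looked at after their values were seen, and are given as values. For each family count below, the shares over all tested genes were 2.77% higher and 2.70% lower. Of 8 tested genes of the apolipoprotein L family, 4 were higher and 1 lower at day 18 than at day 4, with a median log2 change of 2.22. Apol11b had 1268, 912 and 750 normalised counts at day 18 and 160, 200 and 234 at day 4 (log2 change 2.28 ± 0.23, limma adjusted p = 4.6e-05). Apol8 went the other way (log2 change -0.90, limma adjusted p = 0.00463). Of 8 tested Gimap genes, which encode GTPases of lymphocytes, 3 were higher and 0 lower; Gimap7 had 569, 598 and 807 counts at day 18 and 288, 185 and 271 at day 4 (log2 change 1.41 ± 0.20, limma adjusted p = 0.00102).

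Of 14 tested genes of the circadian clock, 3 were lower and 0 higher at day 18, with a median log2 change of -0.20. Arntl, Dbp, Per2, Cry1 and Clock overlapped between the groups (limma adjusted p = 0.948, 0.926, 0.407, 0.978 and 0.903). Nr1d1, Nr1d2 and Tef were lower without overlap but not called, where 9.79% of all tested genes were lower without overlap. The lower genes were Per1, Ciart and Bhlhe40 (limma adjusted p = 0.0281 for Bhlhe40). Per1, a core clock repressor, had 1456, 1128 and 1597 counts at day 18 and 2926, 2413 and 2851 at day 4 (limma adjusted p = 0.00154). Ciart, a repressor of the clock, had 28, 22 and 33 counts at day 18 and 107, 99 and 133 at day 4 (limma adjusted p = 0.000392), and averaged 32.3 in untreated marrow. The hour at which marrow was taken is not in the labels used here, and its part in these values was not tested. Of 46 tested replication-dependent histone genes, 2 were lower and 0 higher, where 2.70% of all tested genes were lower and 2.77% higher. The median log2 change of these histone genes was 0.17, so they did not fall as a family. The 2 lower ones were H2bc8 (limma adjusted p = 0.00074) and the linker histone gene H1f2. H1f2 had 1373, 927 and 1398 counts at day 18 and 3821, 3740 and 3698 at day 4 (limma adjusted p = 0.000118).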
